A study of Homo sapiens with 18 samples.

Results

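The MDM2 degrader MD-224 was set against the MDM2 inhibitor MI-1061 in SJSA-1 cells that had no DNA-breaking drug. The comparison set 6 of the 18 libraries of the study against each other, while the test took its estimate of the spread from all 18. Cells of 3 libraries had 72 h of vehicle (DMSO), renewed after 48 h, and 1 µM MD-224 for the last 24 h. Those of 3 others had the same vehicle and 1 µM MI-1061 for the last 24 h (the sample titles and labels are followed here, while the treatment protocol spells this compound MI-1016). A further 3 libraries with DMSO alone served as the vehicle level, and in the remaining 9 the 72 h were with 1 µg/mL neocarzinostatin (NCS), an antibiotic that breaks DNA, with MD-224, MI-1061 or DMSO for the last 24 h. SJSA-1 is an established human osteosarcoma line with an amplified MDM2 gene, so all groups share that high starting level of MDM2. All 3074 genes of the deposited table were considered, and 3073 passed the filter on low values (at least 10 in at least 3 libraries).

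MDM2 is a ubiquitin ligase that binds the transcription factor p53, blocks it and marks it for destruction. An MDM2 inhibitor occupies the site that p53 uses, so p53 is freed while the MDM2 protein stays in the cell. A degrader brings a ubiquitin ligase to MDM2 and has the protein destroyed. MDM2 is itself a target gene of p53, so its mRNA is a readout of p53 activity and not a check that the protein was lost, and protein was not measured here. The study's title concerns MDM2, RNA polymerase III and the innate response to cytosolic DNA.

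Poly(A) RNA was sequenced, and the values are normalized counts, that is, read counts divided by a factor for each library. The table lists a selection: in each of its genes the mean with NCS plus MI-1061 was 1.75 times that of DMSO or more (median ratio 2.997). That ratio is what the values show, the rule by which genes were listed is not given in the sources used here, and whether it used other libraries is not known. Sums over the selection are not sequencing depths. The listed genes held 6039270 to 10535849 reads with MD-224, 7385605 to 9678012 with MI-1061 and 4490870 to 4834150 with DMSO. MDM2 alone took 5.97% ± 0.975 of the listed counts with MD-224, 14.1% ± 2.28 with MI-1061 and 2.87% ± 0.612 with DMSO (SD, n = 3 each). Pearson's r of log2 values across genes, which are not independent, was 0.9695 to 0.9824 within MD-224 and 0.9716 to 0.9830 within MI-1061. Replicates are separate samples by their labels, which do not say whether they came from separate cultures, so p-values measure the spread between these samples. Since RNA of whole cultures was measured, fewer cells that express a gene and less of its RNA per cell cannot be told apart.

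MD-224 gave lower levels than MI-1061 for many listed genes and higher levels for fewer. All listed genes share a high ratio of NCS plus MI-1061 to DMSO, so the list holds genes high with MI-1061 after NCS. What this selection adds to the split, the median and the depth of the falls was not tested. Of the 3073 tested genes limma called 1531 lower (49.8%) and 381 higher (12.4%) with MD-224 (Benjamini-Hochberg adjusted p under 0.05, two-sided). The median difference of all tested genes was −0.58 on the log2 scale. The falls were also the deeper ones: 1057 genes were called lower by over 2-fold, 464 by over 4-fold and 60 by over 16-fold, whereas 148 were called higher by over 2-fold, 16 by over 4-fold and 0 by over 16-fold. The 1531 lower and 381 higher calls became 1094 and 194 without replicate 3 of every group. All 3 MD-224 libraries lay below all 3 MI-1061 libraries in 1513 genes (49.2%) and above them in 374 (12.2%), and the groups overlapped in 1186 (38.6%).

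The split between lower and higher genes depends on how the libraries are scaled. The deposited size factors put the listed counts at 6784126 to 6929260 with MD-224, against 10378455 to 11605944 with MI-1061. TMM scaling, which takes the bulk of listed genes as unchanged, moved the median log2 difference by 0.49, to −0.08, and then 943 genes were lower (30.7%) and 847 higher (27.6%). By the deposited values that premise does not hold between NCS plus MI-1061 and DMSO, where every listed gene differed by 1.75 times or more. Whether it holds between MD-224 and MI-1061 was not tested. The shift is near the same for every gene, so a gene near 0 with the deposited factors can be called higher from it alone. All 943 were among the 1531, and all 381 were among the 847, while 5 genes were lower with the deposited factors and higher with TMM. Changes below are given with the deposited factors, and a change should be read relative to the median of −0.58. Where TMM turns a direction or ends a call, this stands beside the gene. Positions of either compound relative to DMSO are also given with the deposited factors. TMM scaling moved MD-224 against DMSO by a median log2 of −0.49. A position stated in words that it changes between separate and overlapping libraries is given with both.

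**Figure D1:**
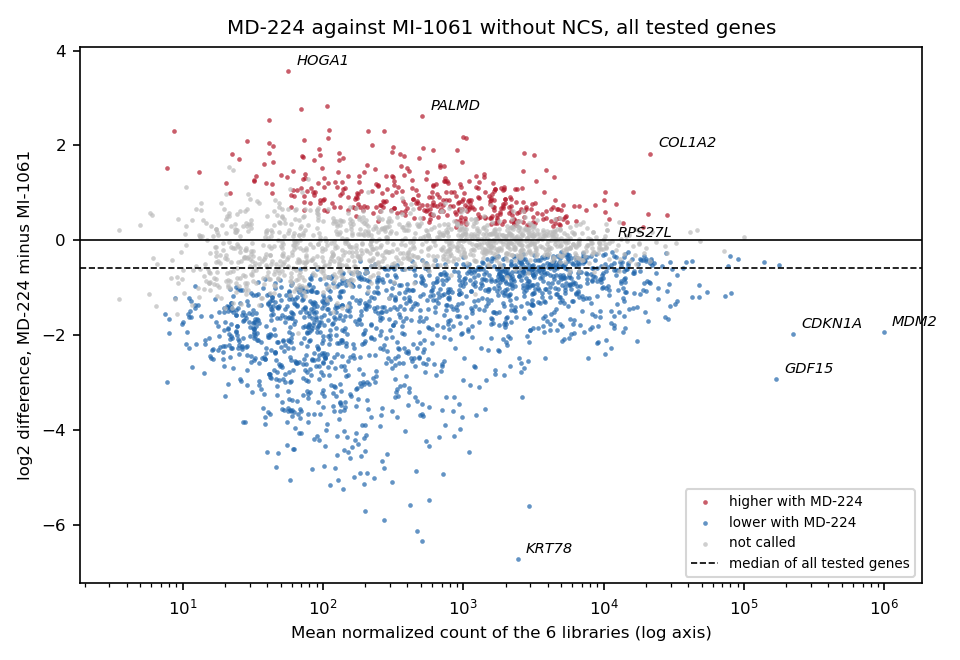
Each point is 1 of 3073 tested genes, with its mean normalized count over the 3 MD-224 and 3 MI-1061 libraries on a log axis and its log2 difference, MD-224 minus MI-1061, on the other. Red points were called higher and blue points lower with MD-224 (limma adjusted p under 0.05), grey points were not called, and the dashed line is the median of −0.58. The blue points reach to KRT78 at −6.72, further from 0 than the highest red point, HOGA1 at 3.56.

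Of the 1531 genes lower with MD-224, 1123 had a DMSO mean below both compounds, 397 a DMSO mean between them and 11 a DMSO mean above both. Of the 381 genes higher with MD-224, the DMSO mean lay below both compounds in 118, between them in 249 and above both in 14. With TMM scaling these positions were 406, 469 and 68 of the 943 lower genes, and 33, 458 and 356 of the 847 higher genes. These are positions of means without a test, and the ratio shared by all listed genes has DMSO in it. Protein-coding genes (2678 tested) were lower in 1346 (50.3%) and higher in 347 (13.0%). Long noncoding RNAs (212 tested) were lower in 107 (50.5%) and higher in 16 (7.55%). Both shares of lower genes were near the 49.8% of all tested genes, of which 12.4% were higher. The median log2 differences were −0.55 for protein-coding genes and −0.82 for long noncoding RNAs.

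Genes that p53 activates directly were lower with MD-224 in most cases. Of 65 genes on 6 lists of p53 targets, 49 were in the table. Of these limma called 41 lower and 0 higher with MD-224, with a median log2 difference of −1.11, beside −0.58 for all genes. The MD-224 libraries lay below the MI-1061 libraries without overlap in 38 of the 49. Among all tested genes these shares were 49.8% called lower, 12.4% called higher and 49.2% below without overlap. With TMM scaling 31 were lower and 4 higher, and the median was −0.61. The lists hold well-known targets, so this describes them and is no test of the group.

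The feedback genes of p53 come first. MDM2 (chromosome 12, 68808172 to 68850686, GRCh38.p14) had normalized counts of 375910, 481270 and 366310 with MD-224, against 1189800, 1828100 and 1698800 with MI-1061. The lowest MI-1061 library stood above the highest MD-224 library by a wide margin, and both groups stood above the 114680, 163950 and 126600 of DMSO. MDM2 was 3.82-fold lower with MD-224 (log2 −1.93, SE 0.17; limma adjusted p = 7.93e-08; −1.44 with TMM scaling). PPM1D, a phosphatase that shuts the p53 response off again, had 1984, 1818 and 1873 with MD-224, against 6826, 9007 and 8879 with MI-1061, and DMSO gave 1836, 1334 and 1611. The lowest MD-224 library lay inside the DMSO range and the other two just above it, and the MI-1061 libraries lay well above. PPM1D was 4.32-fold lower with MD-224 (adjusted p = 2.96e-08).

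All 7 measured genes of cell-cycle arrest were lower with MD-224, beside 49.8% of all tested genes, with a median log2 of −1.66. With TMM scaling all 7 were lower too, beside 30.7% of all tested genes. CDKN1A (chromosome 6, 36676463 to 36687332) encodes p21, the inhibitor of cyclin-dependent kinases through which p53 stops the cycle. Its counts were 104010, 83659 and 84506 with MD-224, against 365100, 349870 and 349060 with MI-1061, and 13252, 12142 and 10129 with DMSO. The 3 MI-1061 libraries lay close together and above every MD-224 library, and the MD-224 libraries lay above every DMSO library. The difference was 3.93-fold (log2 −1.97, SE 0.15; limma adjusted p = 3.32e-08). GADD45A, a stress protein that slows the G2 to M step, averaged 5231 ± 912 with MD-224 and 18591 ± 1612 with MI-1061 (SD, n = 3 each), beside 4335 ± 1957 with DMSO. Its MD-224 libraries (5230, 6144 and 4320) fell within the DMSO range of 4262, 6328 and 2417. E2F7, a repressor of E2F target genes, had 2747, 2953 and 2583 with MD-224, against 7234, 9908 and 9221 with MI-1061. Here DMSO gave 7305, 7257 and 6029, so the MD-224 libraries were the lowest of the 3 groups. PLK2, a kinase induced by p53, showed the smallest change of the list, with 16224 ± 1115 with MD-224 and 32302 ± 639 with MI-1061 (SD, n = 3 each) and a 1.99-fold lower level (adjusted p = 1.37e-07).

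**Figure D2:**
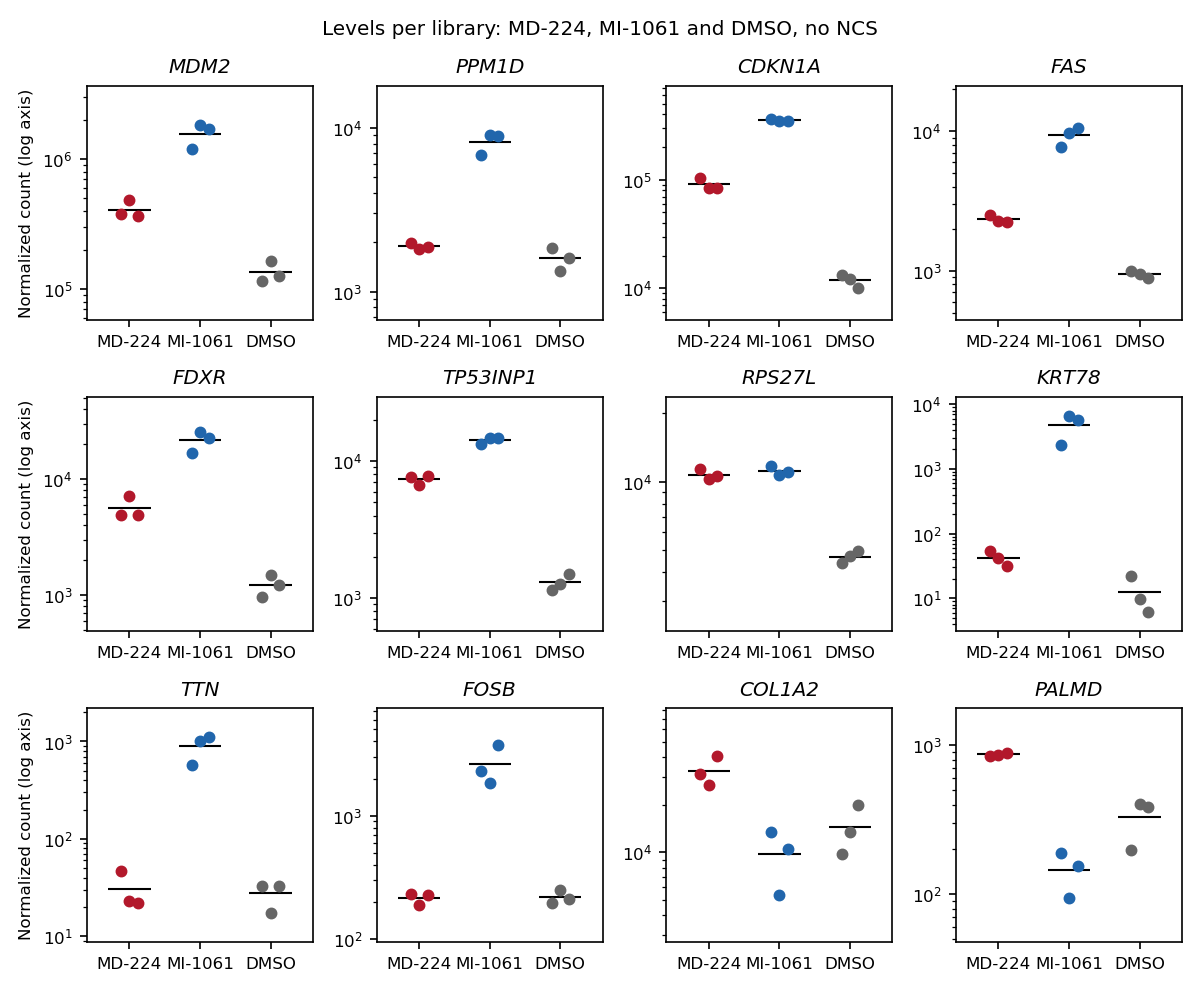
Normalized counts on log axes for 12 genes, with 1 point per library (3 each of MD-224, MI-1061 and DMSO, all without NCS) and a line at the group mean. In 9 of the panels MI-1061 stands above MD-224 without overlap, RPS27L has overlapping MD-224 and MI-1061 libraries, and COL1A2 and PALMD stand higher with MD-224.

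Of 13 measured genes of apoptosis and death receptors 12 were lower and 0 higher with MD-224, with a median log2 of −1.26 (9 lower and 0 higher with TMM scaling). Among all tested genes 49.8% were lower and 12.4% higher. All 4 death receptor genes of the TNF family, cell surface proteins that can start apoptosis or act as its decoys, were lower, with a median of −1.82. FAS, the receptor for FAS ligand, had 2520, 2270 and 2233 with MD-224, against 7748, 9649 and 10521 with MI-1061. No library of the groups overlapped, DMSO gave 995, 954 and 883, and the difference was 3.95-fold (log2 −1.98, SE 0.14; limma adjusted p = 1.06e-08). TNFRSF10B, a receptor for the death ligand TRAIL, had 30777, 26269 and 29839 with MD-224, against 64669, 58459 and 76021 with MI-1061, again without overlap, and was 2.28-fold lower (adjusted p = 7.25e-07). TNFRSF10A, the other TRAIL receptor with a death domain, had few counts with MD-224 and with DMSO. Its counts were 8.03, 2.58 and 11.5 with MD-224, against 467, 301 and 407 with MI-1061, and 2.19, 0.961 and 3.07 with DMSO. It was 52.3-fold lower with MD-224 (log2 −5.71, SE 0.59; adjusted p = 4.92e-07), and a pseudocount of 5 gave a log2 of −5.05. AEN, an exonuclease that acts in p53-dependent apoptosis, had 4871, 5577 and 4426 with MD-224, against 12730, 14299 and 14542 with MI-1061 and was 2.80-fold lower (adjusted p = 5e-08).

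Promoters were searched for the p53 site, a pair of 10-base elements without a spacer, with up to 2 mismatches, over 250 bases before to 50 after each annotated start (RefSeq, GRCh38.p14). The site reads the same on both strands. Of 27305 promoters 173 (0.634%) held such a site, and of the 2274 promoters of tested genes 26 (1.14%). Among the latter it was in 17 of 1129 promoters of genes lower with MD-224 (1.51%), 1 of 294 of higher genes (0.34%) and 8 of 851 of genes not called (0.94%). These counts are small, and the shares were not tested against each other. A match is a description of letters, and no match says only that these letters are not in this window. Sites without a mismatch occurred in 5 of the 27305 promoters, and 1 of those genes was in the table: PTCHD4, a patched-domain gene, chosen here after its values were seen. PTCHD4 had 928, 938 and 879 with MD-224, against 3078, 2562 and 3806 with MI-1061, and 74.4, 168 and 80.8 with DMSO. It was 3.39-fold lower with MD-224 than with MI-1061 (log2 −1.76, SE 0.27; adjusted p = 2.34e-05) and its MD-224 libraries still stood above DMSO. The PTCHD4, AEN and KRT4 promoters are shown because each holds a p53 site and each gene differed between the compounds. Capitals mark the site, which begins at −20, −34 and −99 from the start, with 0, 2 and 2 mismatches.
PTCHD4, chr6:48111148-48111447, minus strand: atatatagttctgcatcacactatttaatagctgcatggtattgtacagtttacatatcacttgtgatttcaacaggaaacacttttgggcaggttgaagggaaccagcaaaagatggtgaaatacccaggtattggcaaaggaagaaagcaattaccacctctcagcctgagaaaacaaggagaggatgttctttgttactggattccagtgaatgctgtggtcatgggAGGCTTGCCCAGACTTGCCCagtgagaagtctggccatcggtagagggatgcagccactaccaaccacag
AEN, chr15:88621090-88621389, plus strand: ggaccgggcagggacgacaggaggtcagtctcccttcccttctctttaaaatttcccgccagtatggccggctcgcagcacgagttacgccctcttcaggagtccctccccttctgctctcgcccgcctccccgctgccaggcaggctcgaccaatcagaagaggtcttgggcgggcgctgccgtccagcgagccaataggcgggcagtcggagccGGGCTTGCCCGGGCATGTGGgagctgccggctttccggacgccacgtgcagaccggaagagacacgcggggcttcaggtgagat
KRT4, chr12:52814067-52814366, minus strand: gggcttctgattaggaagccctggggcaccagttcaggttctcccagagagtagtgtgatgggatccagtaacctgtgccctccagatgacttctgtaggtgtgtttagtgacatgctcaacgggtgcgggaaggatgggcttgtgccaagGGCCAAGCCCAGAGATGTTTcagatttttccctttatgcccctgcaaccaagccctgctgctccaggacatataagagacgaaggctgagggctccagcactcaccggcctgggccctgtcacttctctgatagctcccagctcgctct

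Genes of DNA repair and nucleotide supply divided. Of 6 measured members 4 were lower (median log2 −1.30), beside 49.8% of all tested genes, and 2 were not called. With TMM scaling those 2, RPS27L and ERCC5, were higher. DDB2, which recognizes UV damage, had 2637, 3316 and 2841 with MD-224, against 7820, 10196 and 10193 with MI-1061 and was 3.20-fold lower (log2 −1.68, SE 0.14; limma adjusted p = 5.81e-08). RRM2B, the p53-induced ribonucleotide reductase subunit, had 8040, 6342 and 6483 with MD-224, against 17373, 24224 and 21303 with MI-1061 and was 3.0-fold lower. Both genes had MD-224 libraries above every DMSO library (1606, 1633 and 1739 for DDB2 and 2730, 2811 and 3075 for RRM2B). POLH, a polymerase that copies past UV lesions, had 2155, 1771 and 1514 with MD-224, against 4740, 6218 and 5930 with MI-1061. Its DMSO libraries (2132, 1093 and 1754) overlapped those with MD-224, and it was 3.12-fold lower with MD-224 than with MI-1061 (adjusted p = 5.42e-06). XPC, which finds helix distortions, was 2.02-fold lower (adjusted p = 5.47e-05), at 6353 ± 767 with MD-224 and 12982 ± 2955 with MI-1061 (SD, n = 3 each).

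Of 13 genes of metabolism, redox control and mitophagy 9 were lower and 0 higher, beside 49.8% and 12.4% of all tested genes (median log2 −0.84; 5 lower and 1 higher with TMM scaling). FDXR, ferredoxin reductase of the mitochondrion, had 4941, 7109 and 4887 with MD-224, against 16865, 25556 and 22562 with MI-1061. The MD-224 libraries lay above the 972, 1482 and 1211 of DMSO and below every MI-1061 library, and FDXR was 3.84-fold lower than with MI-1061 (log2 −1.94, SE 0.23; adjusted p = 2.2e-06). TIGAR, a fructose bisphosphatase that slows glycolysis, averaged 5497 ± 397 with MD-224 and 12443 ± 930.5 with MI-1061 (SD, n = 3 each) and was 2.26-fold lower (adjusted p = 1.11e-06). SESN1, a sestrin that restrains mTORC1, averaged 4010 ± 206 with MD-224 and 8700 ± 1387 with MI-1061, and 966 ± 93.6 with DMSO. It was 2.15-fold lower with MD-224 (adjusted p = 2.71e-05). TP53INP1, a regulator of autophagy, had 7619, 6668 and 7827 with MD-224, against 13416, 14684 and 14685 with MI-1061, beside 1145, 1279 and 1500 with DMSO. Its MD-224 libraries thus lay far above vehicle, and it was 1.94-fold lower than with MI-1061 (log2 −0.95, SE 0.15; adjusted p = 3.22e-05).

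Of 8 targets in RNA and protein control 7 were lower and 0 higher, beside 49.8% and 12.4% of all tested genes. Their median log2 was −0.74, and 4 were lower and 1 higher with TMM scaling. FBXW7, the substrate receptor of a ligase for cyclin E and MYC, had 1718, 1863 and 1671 with MD-224, against 3446, 4853 and 5360 with MI-1061 and was 2.56-fold lower (adjusted p = 2.72e-06). PHLDA3, an inhibitor of AKT signalling, had 6133, 6762 and 6227 with MD-224, against 11352, 12167 and 10884 with MI-1061 and was 1.80-fold lower (adjusted p = 6.5e-06). For PHLDA3 the call was lost with the factors that edgeR (adjusted p = 0.0678) and DESeq2 (0.0659) compute from the listed reads.

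A few p53 targets stood at like levels with both compounds. RPS27L, a ribosomal protein paralog that p53 induces, had 11355, 10243 and 10584 with MD-224, against 11750, 10643 and 10957 with MI-1061, and 4393, 4704 and 4936 with DMSO. Its MD-224 and MI-1061 libraries overlapped, and all 6 stood above the DMSO libraries. The log2 difference was −0.05 (95% interval −0.25 to 0.15; limma adjusted p = 0.65). TRIM32, a ubiquitin ligase, had 2468, 2112 and 2511 with MD-224, against 2486, 2041 and 2573 with MI-1061, a log2 difference of 0.00 (interval −0.28 to 0.28). ERCC5, a nuclease of nucleotide excision repair, had 395, 363 and 408 with MD-224, against 377, 359 and 387 with MI-1061, with an interval of −0.25 to 0.36. TMM scaling moved the median of all tested genes by 0.49. With that shift all 3 were called higher with MD-224, RPS27L by 0.45 (limma adjusted p = 0.00176), TRIM32 by 0.50 (0.00589) and ERCC5 by 0.55 (0.00399).

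**Figure D3:**
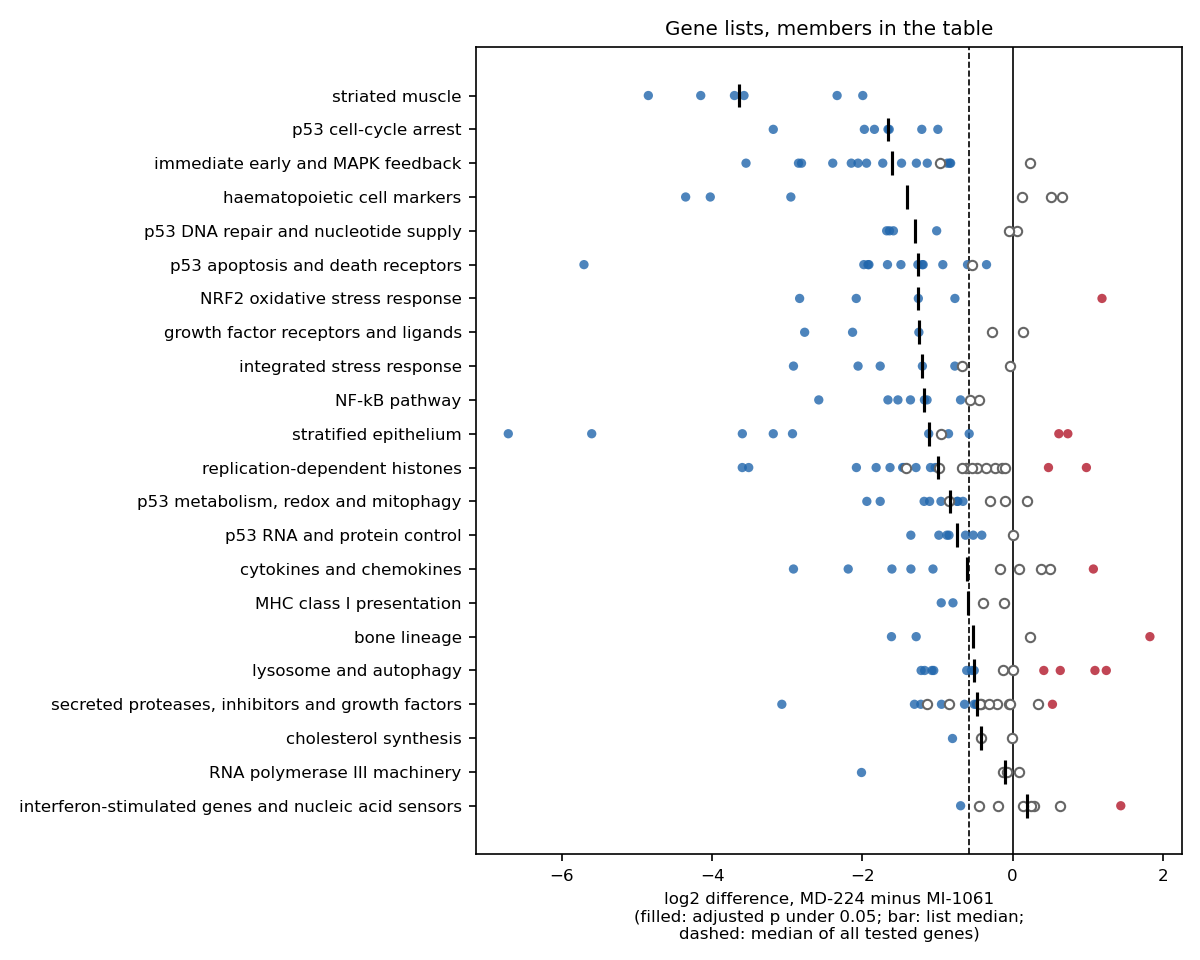
The log2 difference, MD-224 minus MI-1061, of every member in the table of each list with 3 or more members there. Filled points passed the test (limma adjusted p under 0.05; red higher, blue lower with MD-224), open points did not, the short bar is the list's median and the dashed line the median of all tested genes (−0.58). Striated muscle and the p53 arrest genes lie furthest left by their medians, at −3.64 and −1.66, and the interferon list furthest right, at 0.19.

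Immediate early genes and feedback regulators of MAPK signalling answer growth factors and stress within minutes. Of 16 measured members 14 were lower and 0 higher with MD-224, beside 49.8% and 12.4% of all tested genes (median log2 −1.60; 10 lower and 1 higher with TMM scaling). FOSB, a subunit of the AP-1 transcription factor, had 233, 187 and 227 with MD-224, against 2319, 1855 and 3737 with MI-1061. DMSO gave 196, 249 and 212, so MD-224 and DMSO overlapped (with TMM scaling MD-224 lay below DMSO) and all 3 MI-1061 libraries stood far above them. FOSB was 11.7-fold lower with MD-224 (log2 −3.55, SE 0.21; limma adjusted p = 3.12e-09). FOSL1, another AP-1 subunit, had 3980, 3392 and 2550 with MD-224, against 16736, 19220 and 15584 with MI-1061. The DMSO libraries (12916, 6065 and 6140) lay between the compounds, though with TMM scaling they overlapped those with MI-1061, and FOSL1 was 5.26-fold lower with MD-224 (adjusted p = 4.19e-07). DUSP5, a nuclear phosphatase of ERK, averaged 2566 ± 932 with MD-224 and 9646 ± 2046 with MI-1061 (SD, n = 3 each) and was 3.85-fold lower (log2 −1.95; adjusted p = 4.94e-06). IER5, an immediate early regulator, was 1.77-fold lower (adjusted p = 8.21e-06), a call lost with the factors of edgeR (0.0837) and DESeq2 (0.0794).

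The CArG box, which the serum response factor binds, was looked for in the same promoters on both strands. It occurred in 351 of all 27305 (1.29%), 30 of the 2274 of tested genes (1.32%), 18 of the 1129 of lower genes (1.59%) and 3 of the 294 of higher genes (1.02%). The promoter of EGR1, a zinc finger transcription factor of this list chosen after its values were seen, holds 2 of them, at −105 and −83 from the start, in capitals below, and is shown as the promoter of a gene whose MD-224 libraries stood below every MI-1061 library.
EGR1, chr5:138465229-138465528, plus strand: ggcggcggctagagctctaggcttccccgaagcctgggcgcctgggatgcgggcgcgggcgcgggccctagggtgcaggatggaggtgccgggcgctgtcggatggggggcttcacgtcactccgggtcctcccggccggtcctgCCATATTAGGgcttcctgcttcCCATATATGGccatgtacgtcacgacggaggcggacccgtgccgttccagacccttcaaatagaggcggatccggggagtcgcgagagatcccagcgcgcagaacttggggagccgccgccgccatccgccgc
EGR1 had 84.9, 238 and 75.4 with MD-224, against 338, 528 and 761 with MI-1061, and 277, 403 and 85.9 with DMSO. The MD-224 and DMSO libraries overlapped. EGR1 was 4.43-fold lower with MD-224 (log2 −2.15, SE 0.50; limma adjusted p = 0.00135), its log2 was −1.56 without replicate 3 of every group, and edgeR's factors gave an adjusted p of 0.0502.

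NF-kB pathway genes were lower in 7 of 9 measured members and higher in 0, beside 49.8% and 12.4% of all tested genes (median log2 −1.17; 6 lower and 0 higher with TMM scaling). TNIP1, an inhibitor of NF-kB signalling that binds ubiquitin chains, had 11800, 11549 and 10510 with MD-224, against 26941, 23642 and 24028 with MI-1061. The groups did not overlap, the MD-224 libraries lay inside the range of DMSO (12141, 7964 and 8139; with TMM scaling DMSO overlapped both compounds), and the difference was 2.20-fold (log2 −1.14, SE 0.13; limma adjusted p = 1.26e-06). NFKBIE, an inhibitor of the IkB family, had 411, 448 and 427 with MD-224, against 1005, 1071 and 1239 with MI-1061 and was 2.57-fold lower (adjusted p = 1.61e-06). NFKBIZ, an IkB protein of the nucleus, averaged 755 ± 94.6 with MD-224 and 2469 ± 821 with MI-1061 (SD, n = 3 each) and was 3.16-fold lower (adjusted p = 1.62e-05). BIRC3, an inhibitor of apoptosis, had 73.4, 149 and 89.0 with MD-224, against 368, 940.2 and 618 with MI-1061 and was 5.98-fold lower (adjusted p = 2.59e-05). The DMSO libraries of BIRC3 were spread from 75.7 to 290.0 and covered the whole MD-224 range but its lowest library.

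Among 10 measured cytokines and chemokines 5 were lower and 1 higher with MD-224, close to the 49.8% and 12.4% of all tested genes (median log2 −0.61, close to the −0.58 of all genes; 2 lower and 3 higher with TMM scaling). The lower members called were 2 without MI-1061 replicate 2 and 3 without MD-224 replicate 3, likewise 3 when replicate 2 or 3 was left out in every group, and 2 were higher without MI-1061 replicate 1. GDF15, a stress cytokine that p53 and the integrated stress response both induce, had 36540, 51058 and 31947 with MD-224, against 255980, 319740 and 314110 with MI-1061. The MI-1061 libraries were the highest by far, and DMSO gave 4563, 22047 and 3940, with replicate 2 apart from the others. GDF15 was 7.55-fold lower with MD-224 (log2 −2.92, SE 0.44; limma adjusted p = 2.41e-05). CSF1, the macrophage growth factor, had 15639, 18165 and 20907 with MD-224, against 30776, 37458 and 46713 with MI-1061 and was 2.08-fold lower (adjusted p = 3.55e-05), a call lost with the factors of edgeR (0.0606) and DESeq2 (0.0677). IL7, a growth factor of lymphocytes, was the member that rose, at 339.6, 361 and 456 with MD-224, against 192, 199 and 155 with MI-1061. Its MD-224 libraries stood above the MI-1061 and DMSO (196, 185 and 267) libraries, but overlapped DMSO with TMM scaling, and the level was higher than with MI-1061 (log2 1.08, SE 0.20; adjusted p = 0.000224). IL1B had 427, 384 and 336 with MD-224, against 1219, 1748 and 433 with MI-1061 and a limma adjusted p of 0.0133. That call was lost when MI-1061 replicate 2 was left out (0.0883), when replicate 1 (0.0738) or 2 (0.141) of every group was left out, and with TMM scaling (0.0973).

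Secreted proteases, their inhibitors and growth factors were lower in 9 of 19 members and higher in 1 (median log2 −0.47; 2 lower and 3 higher with TMM scaling), near the 49.8% and 12.4% of all tested genes. SERPINB2, an inhibitor of plasminogen activators, had 20.7, 24.5 and 29.3 with MD-224, against 239, 209 and 197 with MI-1061. One DMSO library stood at 131, the others at 15.4 and 12.3, and the gene was 8.41-fold lower with MD-224 (log2 −3.07, SE 0.74; limma adjusted p = 0.00176). IGFBP3, a carrier of insulin-like growth factors, had 3944, 1967 and 2731 with MD-224, against 7810, 5338 and 7697 with MI-1061 and was 2.47-fold lower (log2 −1.31; adjusted p = 0.000112). TIMP1, an inhibitor of matrix metalloproteases, had 14868, 12870 and 14692 with MD-224, against 23700, 19786 and 22699 with MI-1061, a 1.56-fold lower level (adjusted p = 0.000219) that no longer passed with TMM scaling (0.342). PLAT, the tissue plasminogen activator, stood at like levels, at 3040 ± 316 with MD-224 and 3112 ± 320.2 with MI-1061 (SD, n = 3 each; log2 −0.03, interval −0.35 to 0.28), and was called higher with TMM scaling (log2 0.47, adjusted p = 0.0081). The member that rose was MMP2, a gelatin-degrading protease picked after its values were seen, at 31073, 38008 and 31270 with MD-224, against 26446, 22117 and 20940 with MI-1061 (log2 0.53; adjusted p = 0.00341, lost at 0.0872 without replicate 2 of every group).

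The integrated stress response is the programme through which ATF4 raises amino acid supply and stress proteins. Its genes were lower in 5 of 7 members and higher in 0, beside 49.8% and 12.4% of all tested genes (median log2 −1.20; 4 lower and 0 higher with TMM scaling). ATF3, a stress-induced transcription factor, had 2086, 2612 and 1858 with MD-224, against 8848, 7587 and 10891 with MI-1061, with DMSO at 1083, 3389 and 876. The MD-224 libraries lay inside the DMSO range, and ATF3 was 4.16-fold lower with MD-224 (log2 −2.06, SE 0.33; limma adjusted p = 4.57e-05). SESN2, a sestrin induced by ATF4 and p53, averaged 2765 ± 538 with MD-224 and 9349 ± 1422 with MI-1061 (SD, n = 3 each) and was 3.40-fold lower (adjusted p = 0.000136). PSAT1, an enzyme of serine synthesis, had 2056, 2359 and 2225 with MD-224, against 4868, 5533 and 4871 with MI-1061. Its DMSO libraries (3240, 5121 and 4200) lay above every MD-224 library, and it was 2.30-fold lower with MD-224 than with MI-1061 (adjusted p = 1.75e-05). For ATF3, SESN2 and GDF15, DMSO replicate 2 was the highest of its group.

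The 5 measured genes of the NRF2 response to oxidative stress were lower in 4 and higher in 1, beside 49.8% and 12.4% of all tested genes (median log2 −1.26; 3 lower and 1 higher with TMM scaling). SRXN1, which repairs oxidized peroxiredoxins, had 2214, 1877 and 1909 with MD-224, against 9708, 7430 and 8355 with MI-1061. MD-224 and DMSO (2559, 1445 and 1758) overlapped, and SRXN1 was 4.23-fold lower with MD-224 (log2 −2.08, SE 0.17; limma adjusted p = 5.01e-08). AKR1B10, an aldo-keto reductase, had 186, 111 and 169.6 with MD-224, against 809, 1210 and 1328 with MI-1061 and was 7.14-fold lower (adjusted p = 1.32e-06). OSGIN1, a growth inhibitor induced by oxidative stress, averaged 735 ± 63.5 with MD-224 and 1792 ± 470.4 with MI-1061 (SD, n = 3 each) and was 2.39-fold lower (adjusted p = 1.54e-05). AKR1C1, an aldo-keto reductase that acts on steroids, went the other way, at 176, 409 and 439 with MD-224, against 149, 139 and 126 with MI-1061. Replicate 1 was the lowest of its MD-224 libraries, the level was 2.28-fold higher (adjusted p = 0.00217), and the call was lost without replicate 3 of every group (0.0868).

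Because the title of the study speaks of RNA polymerase III and cytosolic DNA, these genes were read one by one. Of 41 interferon-stimulated genes and nucleic acid sensors 8 were in the table. With MD-224 1 was higher and 1 lower, beside 12.4% and 49.8% of all tested genes (median log2 0.19; 5 higher and 0 lower with TMM scaling), and 2 were higher without replicate 1 of MD-224 or of every group. OAS2, an enzyme that senses double-stranded RNA, had 119, 300.1 and 149.7 with MD-224, against 48.9, 91.1 and 58.4 with MI-1061, and 55.8, 167 and 123 with DMSO. It was 2.71-fold higher with MD-224 than with MI-1061 (log2 1.44, SE 0.53; limma adjusted p = 0.0243). That call was lost without MD-224 replicate 2 (0.117), MI-1061 replicate 1 (0.0793) or 3 (0.0645), or replicate 3 of every group (0.148). IFI16, a DNA sensor, had 6907, 7549 and 8074 with MD-224, against 9303, 14715 and 12959 with MI-1061 and was 1.61-fold lower (adjusted p = 0.00269), but not without replicate 3 of every group (0.0632) or with TMM scaling (0.353).

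STAT2, a subunit of the factor that type I interferons activate, had 4627, 5594 and 5003 with MD-224, against 4333, 4534 and 3926 with MI-1061. The MD-224 libraries lay above the MI-1061 libraries, yet the limma adjusted p was 0.0615, and it was 0.0265 with the replicate number as a block. MX1, an antiviral GTPase, averaged 1262 ± 461 with MD-224 and 795 ± 188 with MI-1061 (SD, n = 3 each), with an adjusted p of 0.135, and of 0.00791 with the block. TMEM173, which encodes STING, the adaptor of cytosolic DNA sensing, had 2634, 3310 and 3228 with MD-224, against 2608, 2943 and 2773 with MI-1061. Its groups overlapped, with a log2 difference of 0.13 (interval −0.13 to 0.40; adjusted p = 0.361). TMM scaling moved the median of all tested genes by 0.49. With that shift STAT2 (0.75, limma adjusted p = 2.19e-05), MX1 (1.13, 0.0132) and TMEM173 (0.63, 0.000147) were called higher with MD-224.

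The RNA polymerase III machinery had 4 of its 29 genes in the table, 1 lower and 0 higher with MD-224, beside 49.8% and 12.4% of all tested genes (median log2 −0.10; 1 lower and 1 higher with TMM scaling). SNAPC1, part of the SNAPc complex at snRNA gene promoters, had 1449, 915 and 964 with MD-224, against 5490, 3131 and 5008 with MI-1061. MD-224 and DMSO (1756, 1276 and 1212) overlapped and the MI-1061 libraries stood above both, whereas with TMM scaling MD-224 lay below DMSO, which overlapped MI-1061, and SNAPC1 was 4.07-fold lower with MD-224 (log2 −2.02, SE 0.21; limma adjusted p = 4.19e-07). BRF2, an initiation factor for RNA polymerase III, had 2439, 1477 and 1990 with MD-224, against 2864, 1698 and 1912 with MI-1061 (log2 −0.12, interval −0.55 to 0.30). GTF3C6, a subunit of TFIIIC, had 2819, 2102 and 2479 with MD-224, against 2962, 2057 and 2021 with MI-1061 (log2 0.09, interval −0.23 to 0.40). SNAPC5, another subunit of the snRNA activating complex, averaged 307 ± 57.8 with MD-224 and 320.1 ± 31.4 with MI-1061 (SD, n = 3 each; log2 −0.07, interval −0.50 to 0.35). The groups of these 3 genes overlapped, and with TMM scaling their log2 was 0.37, 0.58 and 0.43, with a call for GTF3C6 (adjusted p = 0.00428). Transcripts that RNA polymerase III itself makes were not analysed here.

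Of 4 measured genes of MHC class I presentation 2 were lower, near the 49.8% of all tested genes, and 0 higher (median log2 −0.59; 1 lower and 1 higher with TMM scaling). HLA-B, a heavy chain that shows peptides to T cells, averaged 32771 ± 5068 with MD-224 and 63400 ± 10790 with MI-1061 (SD, n = 3 each), 1.93-fold lower (adjusted p = 2.33e-05), and the call was lost with the factors of edgeR (0.109) and DESeq2 (0.145). HLA-C averaged 763 ± 229 with MD-224 and 1301 ± 272 with MI-1061, 1.73-fold lower (adjusted p = 0.00758), but not without MD-224 replicate 2 (0.0527), without replicate 1 of every group (0.0734) or with TMM scaling (0.312). ERAP2, which trims peptides for class I molecules, stood at 3600, 3082 and 3399 with MD-224, against 3924, 3027 and 4024 with MI-1061 (log2 −0.11, interval −0.39 to 0.16; 0.39 with TMM scaling, adjusted p = 0.0206). HLA genes are near-identical in parts, so reads may be shared among them.

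The 15 largest falls with MD-224 (mean of at least 50, no overlap, rule in the account of the processing) ran from 32.2-fold to 105-fold. In 12 of them the DMSO mean lay below the MD-224 mean and in 3 at or above it (6 and 9 with TMM scaling). That the MI-1061 libraries stood apart from those with MD-224 follows from the rule. These genes reached the required mean through their MI-1061 libraries. The MI-1061 libraries also lay above every DMSO library, which the rule did not ask for, though the ratio shared by all listed genes has DMSO in it. KRT78 (chromosome 12, 52837804 to 52848994), a type II keratin of stratified epithelia, had 53.9, 41.2 and 31.4 with MD-224, against 2365, 6478 and 5696 with MI-1061, and 21.9, 9.61 and 6.14 with DMSO. MI-1061 replicate 1 was the lowest of its group and still far above every MD-224 library. KRT78 was 105-fold lower with MD-224 (log2 −6.72, SE 0.40; limma adjusted p = 3.12e-09), and its log2 was −7.36 without replicate 1 of every group. KRT4 (chromosome 12, 52806549 to 52814116), a keratin of mucosal epithelia whose promoter is shown above, had 120.5, 137 and 90.0 with MD-224, against 3915, 7033 and 6392 with MI-1061. The 3 groups did not overlap, DMSO being lowest (18.6, 29.8 and 24.6), and KRT4 was 48.7-fold lower with MD-224 (log2 −5.61, SE 0.28; adjusted p = 8.9e-10).

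TBX4, a transcription factor of hind limb development, had 6.88, 11.6 and 14.7 with MD-224, against 359, 1221 and 1196 with MI-1061 and was 69.7-fold lower (adjusted p = 9.83e-09). MYRIP, which links organelles to myosin motors, had 26.4, 9.66 and 4.19 with MD-224, against 531, 1366 and 1108 with MI-1061 and was 81.1-fold lower. Its log2 of −6.34 was −6.97 without MD-224 replicate 1, −7.37 without replicate 1 of every group and −5.64 without replicate 3 of every group. The noncoding RNA LINC00452 had 16.1, 7.08 and 4.19 with MD-224, against 698, 444 and 473 with MI-1061, and 27.4, 7.69 and 1.02 with DMSO, so MD-224 and DMSO overlapped and it was 59.1-fold lower than with MI-1061. RET, the receptor for ligands of the GDNF family, had 1.15, 5.15 and 2.09 with MD-224, against 117, 129.5 and 96.8 with MI-1061. Here the DMSO libraries (4.38, 17.3 and 6.14) reached above those with MD-224 but overlapped them, and with TMM scaling MD-224 lay below DMSO. RET was 33.3-fold lower with MD-224, and with a pseudocount of 5 its log2 of −5.06 became −3.96.

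The remaining large falls included genes best known from nerve cells and from muscle. ARC, a protein of active synapses, had 25.2, 34.8 and 14.7 with MD-224, against 768, 1274 and 1330 with MI-1061 and was 44.6-fold lower (adjusted p = 3.52e-09). MBP, myelin basic protein, had 8.03, 19.3 and 18.8 with MD-224, against 395, 1274 and 793 with MI-1061 (47.9-fold), and SEZ6, a neuronal membrane protein, had 14.9, 13.5 and 4.19 with MD-224, against 255, 464 and 432 with MI-1061 (35-fold; log2 −5.13, and −4.50 without replicate 3 of every group). The MD-224 libraries of ARC overlapped those of DMSO (18.6, 34.6 and 16.4), as did those of MBP (5.47, 13.5 and 23.5). MYOM1, which ties myosin filaments together in the sarcomere, was 35.4-fold lower (log2 −5.15, and −4.38 with a pseudocount of 5). ACSL6, an acyl-CoA synthetase, was 37.8-fold lower (log2 −5.24; −4.53 with a pseudocount of 5, −5.92 without MI-1061 replicate 1 and −5.87 when all groups lacked replicate 1). The F-box gene FBXW10 was 34.3-fold lower, the G protein subunit gene GNA15 32.2-fold and the adhesion receptor gene ADGRF5 33.4-fold. ADGRF5's log2 of −5.06 ranged from −4.43 without replicate 3 to −6.18 without replicate 1 of every group and was −4.34 with a pseudocount of 5. Several of these genes have an annotated partner on the other strand, such as PIPOX for SEZ6 and TNFRSF10A-AS1 for TNFRSF10A, and so do MDM2 (CPM), FAS (ACTA2), TTN (TTN-AS1) and NEB (RIF1). Whether counting used the strand is not given in the sources used here, so reads of such pairs cannot be told apart.

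**Figure D4:**
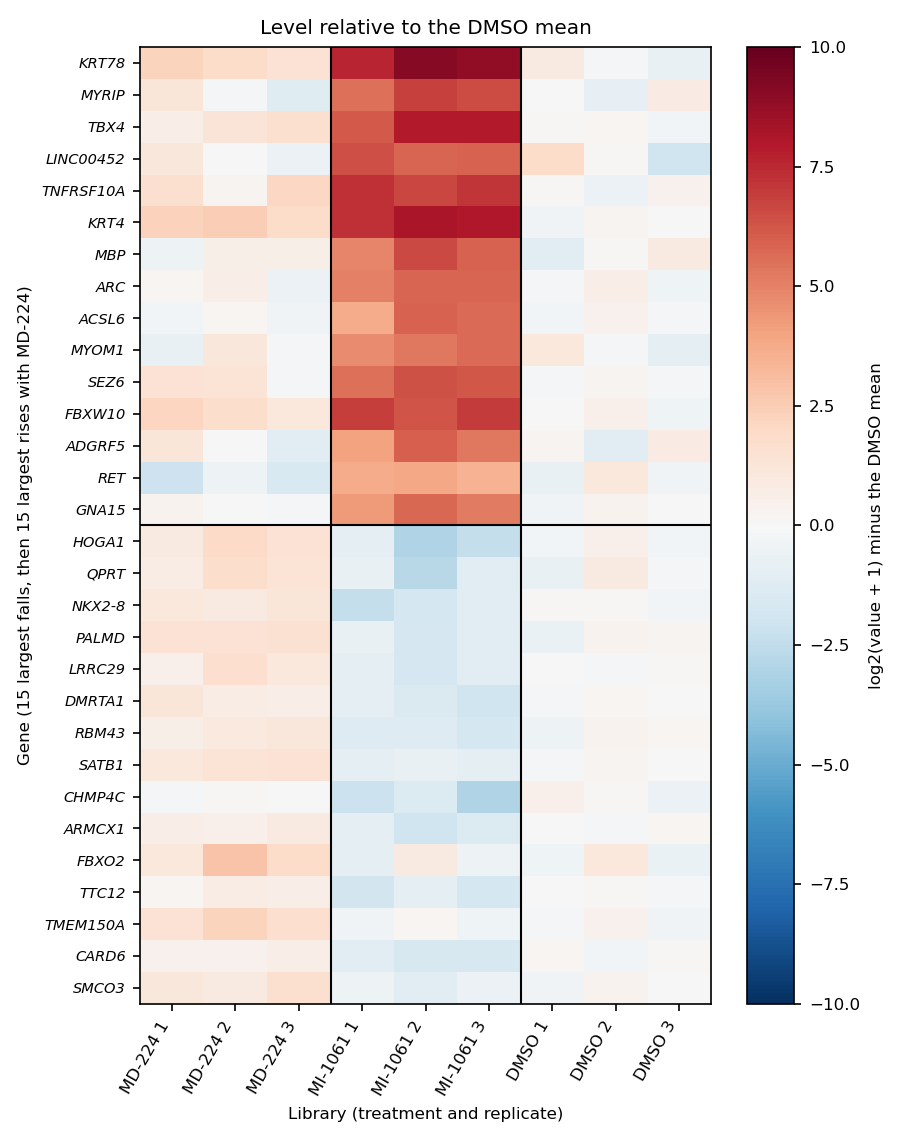
Rows are the 15 largest falls and below them the 15 largest rises with MD-224, columns the 3 libraries each of MD-224, MI-1061 and DMSO, and colour the log2(value + 1) minus the gene's DMSO mean. In the upper rows the MI-1061 columns are the darkest red and MD-224 is paler. In the lower rows MI-1061 is mostly blue and MD-224 pale red, with CHMP4C near white for MD-224.

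Genes best known from other tissues were read by list. Of 29 striated muscle genes 6 were in the table, and all 6 were lower with MD-224, also with TMM scaling (median log2 −3.64), beside 49.8% of all tested genes. TTN (chromosome 2, 178525989 to 178807423), the giant spring protein of the sarcomere, had 47.0, 23.2 and 22 with MD-224, against 574, 1011 and 1104 with MI-1061, and 32.8, 17.3 and 32.7 with DMSO. MD-224 and DMSO overlapped, MI-1061 stood apart, and TTN was 28.9-fold lower with MD-224 (log2 −4.85, SE 0.37; limma adjusted p = 2.96e-08; −5.49 without replicate 1 of every group). RYR1, the calcium channel of the sarcoplasmic reticulum, had 48.2, 122 and 52.3 with MD-224, against 792, 1488 and 1532 with MI-1061 and was 17.8-fold lower (log2 −4.15). NEB, the filament protein nebulin, averaged 74.5 ± 26.9 with MD-224 and 964 ± 219.8 with MI-1061 (SD, n = 3 each), 13.0-fold lower. XIRP1, an actin-binding protein of muscle, averaged 8.53 ± 4.06 with MD-224 and 113 ± 46.8 with MI-1061, 11.9-fold lower, with DMSO at 20.3 ± 2.78. The summed level of the 6 genes was 283.7 to 401.6 with MD-224, 2976 to 4520 with MI-1061 and 268 to 439.9 with DMSO.

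Of 33 genes of stratified epithelium 11 were in the table, 8 lower and 2 higher with MD-224, beside 49.8% and 12.4% of all tested genes (median log2 −1.12; 6 lower and 2 higher with TMM scaling). DSC3, a desmosomal cadherin, averaged 2064 ± 596 with MD-224 and 4357 ± 332 with MI-1061 (SD, n = 3 each) and was 2.17-fold lower (log2 −1.12, SE 0.22; limma adjusted p = 0.000293), a call lost with the factors of edgeR (0.0726) and DESeq2 (0.0822). The 2 higher members, chosen after their values were seen, were the desmosome genes DSP (log2 0.62, adjusted p = 0.0187) and JUP (0.74, 0.04). DSP had 2696, 3350 and 3625 with MD-224, against 1519, 3053 and 1958 with MI-1061, and JUP had 4392, 8287 and 6323 with MD-224, against 2571, 6358 and 3048 with MI-1061, so the groups overlapped in both. The DSP call was lost with only the compared groups (0.0591), without MD-224 replicate 3, MI-1061 replicate 1 or 3, or replicate 1 or 3 of every group (0.059 to 0.226). The JUP call was lost with only the compared groups (0.09), without MD-224 replicate 2 or 3, MI-1061 replicate 1 or 3, or replicate 3 of every group (0.0893 to 0.33). Both calls were also lost on the recovered reads with the deposited factors. There edgeR's adjusted p was 0.0678 for DSP and 0.138 for JUP, and that of DESeq2 was 0.0675 and 0.13. The summed level of the 11 genes was 11280 to 15480 with MD-224, 18640 to 32430 with MI-1061 and 7701 to 9853 with DMSO.

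Haematopoietic markers, searched as signs of other cells, had 6 of 19 genes in the table, 3 lower, near the 49.8% of all tested genes, and 0 higher (median log2 −1.41; 3 lower and 2 higher with TMM scaling; 1 higher without replicate 1 of MD-224 or of every group), and the summed level was 1243 to 2091 with MD-224, 2902 to 3782 with MI-1061 and 578 to 1266 with DMSO. CD79A, a part of the B cell receptor, had 10.3, 14.2 and 22 with MD-224, against 169.8, 335 and 297 with MI-1061 and was 16.3-fold lower. ITGAM, an integrin of myeloid cells, had 6.88, 28.3 and 12.6 with MD-224, against 219, 369 and 329 with MI-1061 and was 20.4-fold lower. LAPTM5, a lysosomal protein of blood cells, averaged 231 ± 68.9 with MD-224 and 1762 ± 274 with MI-1061 (SD, n = 3 each), 7.74-fold lower (adjusted p = 2.5e-06). ITGAX, an integrin of dendritic cells, did not pass at 295, 960.1 and 414 with MD-224, against 295, 386 and 259.8 with MI-1061 (adjusted p = 0.127, 0.0196 with the replicate block and 0.0123 with TMM scaling). The part that other cells might have in them was not tested, and the defining markers PTPRC, CD3E, CD14 and HBB were not analysed here.

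The largest rises with MD-224 were also set beside the vehicle libraries. They were picked for MI-1061 values far below those with MD-224. Of all 381 higher genes the DMSO mean lay below both compounds in 118 (33 of 847 with TMM scaling). For all 15 of the largest rises (3.82-fold to 11.8-fold) the DMSO mean lay above the MI-1061 mean, and for 14 it lay below the MD-224 mean. PALMD (chromosome 1, 99646113 to 99694535), which encodes palmdelphin, had 850.2, 863 and 891 with MD-224, against 188, 94.7 and 154 with MI-1061, and 199, 402 and 386 with DMSO. The 3 MD-224 libraries lay close together above all DMSO libraries, which lay above all MI-1061 libraries. PALMD was 6.17-fold higher with MD-224 (log2 2.62, SE 0.28; limma adjusted p = 7.86e-07). SATB1 (chromosome 3, 18345377 to 18445592), an organizer of chromatin loops, had 1352, 1710 and 1792 with MD-224, against 333, 386 and 352 with MI-1061, and 566, 769.8 and 639 with DMSO, again in 3 separate ranges, and was 4.50-fold higher (log2 2.17, SE 0.15; adjusted p = 1.06e-08). ARMCX1, a mitochondrial protein that aids transport along axons, had 1650, 1485 and 1950 with MD-224, against 545, 257 and 389 with MI-1061, and 966, 936 and 1172 with DMSO, 4.43-fold higher (adjusted p = 1.9e-07). Its MD-224 libraries stood above DMSO, but overlapped DMSO with TMM scaling.

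The largest rise was in a gene with few counts. HOGA1 (chromosome 10, 97584389 to 97612802), an aldolase of hydroxyproline breakdown in mitochondria, had 70.0, 140.4 and 102 with MD-224, against 18, 3.60 and 6.15 with MI-1061, and 29.5, 52.9 and 30.7 with DMSO, which MD-224 overlapped only with TMM scaling. It was 11.8-fold higher (log2 3.56, SE 0.54; limma adjusted p = 2.33e-05), and its log2 was 4.39 without replicate 1 and 2.87 without replicate 2 of every group. QPRT, an enzyme of NAD synthesis from tryptophan, had 122, 251 and 184 with MD-224, against 43.7, 9.59 and 32.3 with MI-1061, 7.13-fold higher (log2 2.83; 2.21 without MI-1061 replicate 2, 3.53 and 1.97 without replicates 1 and 2 of every group). In both genes MI-1061 replicate 2 was the lowest library. NKX2-8, a homeobox transcription factor, had 119, 108 and 138 with MD-224, against 10.3, 16.8 and 27.7 with MI-1061 and was 6.82-fold higher (adjusted p = 7.52e-07).

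DMRTA1, a DM domain transcription factor, averaged 349.7 ± 75.7 with MD-224 and 72.0 ± 27.2 with MI-1061 (SD, n = 3 each), 4.97-fold higher, and RBM43, an RNA-binding protein, averaged 455 ± 93.7 with MD-224 and 90.6 ± 17.2 with MI-1061, also 4.97-fold higher. CHMP4C, an ESCRT-III subunit that times the last step of cell division, was the gene with a DMSO mean above that of MD-224: it had 155, 197 and 176 with MD-224, against 38.6, 67.2 and 21.5 with MI-1061, and 254, 194 and 117 with DMSO. MI-1061 was therefore the group apart, and CHMP4C was 4.48-fold higher with MD-224 (adjusted p = 2.14e-05). TTC12, needed to assemble the dynein arms of cilia, had 281, 408 and 376 with MD-224, against 68.2, 132 and 72.2 with MI-1061, with DMSO at 239, 262 and 227, and CARD6, a protein with a caspase recruitment domain, had 776, 792 and 901 with MD-224, against 265, 189 and 188 with MI-1061, with DMSO at 648, 469 and 620.0. In both the DMSO libraries lay between the compounds without overlap, while with TMM scaling DMSO and MD-224 overlapped, and MD-224 stood 4.01-fold and 3.88-fold above MI-1061. The other rises were LRRC29 (5.01-fold), FBXO2 (4.34-fold; adjusted p = 0.00306, lost at 0.0678 without replicate 3 of every group), TMEM150A (3.93-fold) and SMCO3 (3.82-fold). CHMP4C, FBXO2, TMEM150A, SMCO3 and SATB1 overlap an annotated gene on the other strand.

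Bone lineage genes bear on what SJSA-1 cells are: 4 of 17 were in the table, 2 lower (near the 49.8% of all tested genes) and 1 higher with MD-224 (median log2 −0.52; 1 lower and 2 higher with TMM scaling). Without MI-1061 replicate 2, 1 was lower and 2 were higher, and 1 was lower without MD-224 replicate 3 or replicate 2 of every group. COL1A2 (chromosome 7, 94394895 to 94431227), a chain of the type I collagen of bone, had 31243, 26593 and 41047 with MD-224, against 13461, 5370 and 10516 with MI-1061, and 9754, 13428 and 19989 with DMSO, which MI-1061 overlapped only with the deposited factors and MD-224 only with TMM scaling. It was 3.55-fold higher with MD-224 (log2 1.83, SE 0.28; limma adjusted p = 2.92e-05), and MI-1061 replicate 2 was its lowest library. BMP2, a bone-inducing growth factor, had 532, 486 and 488 with MD-224, against 1120, 1997 and 1622 with MI-1061 and was 3.06-fold lower (adjusted p = 0.000189). SPP1, the matrix protein osteopontin, averaged 671 ± 228 with MD-224 and 1713 ± 919 with MI-1061 (SD, n = 3 each; adjusted p = 0.00882). That call was lost without MD-224 replicate 3 (0.0525), MI-1061 replicate 2 (0.065) or replicate 2 of every group (0.0559) and with TMM scaling (0.0825).

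Lysosome and autophagy genes moved both ways, 7 lower and 4 higher of 13, beside 49.8% and 12.4% of all tested genes (median log2 −0.51; 4 lower and 5 higher with TMM scaling; 2 higher without replicate 3 of every group). MAP1LC3B, which coats the autophagosome membrane, had 8697, 7536 and 8480 with MD-224, against 17258, 20059 and 20224 with MI-1061 and was 2.33-fold lower with MD-224 (log2 −1.22, SE 0.10; limma adjusted p = 3.14e-08). SQSTM1, the cargo receptor p62, had 42949, 43856 and 47462 with MD-224, against 109330, 90387 and 103180 with MI-1061 and was 2.25-fold lower, and NPC1, the cholesterol exporter of lysosomes, averaged 8314 ± 546 with MD-224 and 17201 ± 703 with MI-1061 (SD, n = 3 each), 2.07-fold lower. WIPI1, which binds the membrane where autophagosomes form, went the other way at 4657, 4424 and 4792 with MD-224, against 2485, 1729 and 1714 with MI-1061. Its MD-224 libraries stood above all MI-1061 and DMSO (2277, 2386 and 2321) libraries, 2.38-fold higher than MI-1061 (log2 1.25, SE 0.13; adjusted p = 3.91e-07).

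The other 3 higher members of that list, named after their values were seen, were TFEB, GABARAPL1 and ATG4A. TFEB, the transcription factor of lysosomal genes, had 198, 200.3 and 191 with MD-224, against 86.2, 110.3 and 79.9 with MI-1061 and was 2.14-fold higher (adjusted p = 0.000822). GABARAPL1, a relative of MAP1LC3B, was 1.55-fold higher (adjusted p = 0.00327, lost at 0.103 without replicate 3 of every group). ATG4A, a protease that trims such proteins, was 1.33-fold higher (adjusted p = 0.0073, 0.054 with only the compared groups and 0.128 without replicate 3 of every group). With edgeR and the deposited factors its adjusted p was 0.061. HEXA, a lysosomal hexosaminidase, was level at 7126, 8868 and 8639 with MD-224, against 8297, 7320 and 8801 with MI-1061 (log2 0.01, interval −0.22 to 0.24) and was called higher with TMM scaling (0.51, adjusted p = 0.00129).

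Among growth factor receptors and ligands 3 of 5 members were lower and 0 higher, beside 49.8% and 12.4% of all tested genes (median log2 −1.25; 2 lower and 0 higher with TMM scaling). FGFR2, a fibroblast growth factor receptor, had 112, 174 and 125 with MD-224, against 752, 1079 and 971 with MI-1061. The DMSO libraries (422, 351 and 385) lay between the compounds without overlap (with TMM scaling they overlapped MI-1061), and FGFR2 was 6.82-fold lower with MD-224 than with MI-1061 (log2 −2.77, SE 0.22; limma adjusted p = 3.91e-08). EPHA2, an ephrin receptor, had 7487, 6800 and 5200 with MD-224, against 24477, 29523 and 30803 with MI-1061 and was 4.38-fold lower (adjusted p = 1.09e-06). Of 3 cholesterol synthesis genes 1 was lower, beside 49.8% of all tested genes, and 0 were called with TMM scaling and 2 were lower without MD-224 replicate 3. The lower gene was HMGCS1, which makes HMG-CoA, at 6945 ± 2358 with MD-224 and 12081 ± 3741 with MI-1061 (SD, n = 3 each; limma adjusted p = 0.00993). The HMGCS1 call was lost without MD-224 replicate 2 (0.0667), MI-1061 replicate 3 (0.0699) or replicate 2 of every group (0.147) and with TMM scaling (0.313). DDB1, an adaptor of cullin ubiquitin ligases, was the 1 of 6 ligase genes in the table. It had 23970, 27258 and 24264 with MD-224, against 26931, 33857 and 30516 with MI-1061, with a limma adjusted p of 0.0224 for a lower level (log2 −0.27), which TMM scaling turned to a higher one (0.23, adjusted p = 0.0273) and which was lost with only the compared groups (0.108) and without MD-224 replicate 1 or 3, MI-1061 replicate 2 or 3, or replicate 2 or 3 of every group (0.0533 to 0.224). The DDB1 call was also lost on the recovered reads with the deposited factors (adjusted p of 0.0925 with edgeR and 0.094 with DESeq2). Of 25 genes of mitosis and DNA replication 0 were in the table.

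Replication-dependent histone transcripts usually lack a poly(A) tail, and 23 were in the table, 11 lower and 2 higher with MD-224, close to the 49.8% and 12.4% of all tested genes (median log2 −1.0; 9 lower and 2 higher with TMM scaling). HIST1H2BJ had 118, 83.7 and 76.4 with MD-224, against 965, 1185 and 1018 with MI-1061, and 95.2, 166 and 156 with DMSO. MD-224 and DMSO overlapped, or with TMM scaling MD-224 lay below DMSO, and the gene was 11.4-fold lower than with MI-1061 (log2 −3.51, SE 0.24; limma adjusted p = 9.83e-09). HIST1H2BK averaged 1781 ± 106 with MD-224 and 3563 ± 326 with MI-1061 (SD, n = 3 each) and was 2.0-fold lower, HIST1H2AE averaged 30.0 ± 2.35 with MD-224 and 115 ± 47.5 with MI-1061 and was 3.52-fold lower, and HIST1H1E was 12.1-fold lower (log2 −3.60, and −2.93 without replicate 2 of every group). The 2 higher members, named after their values were seen, were HIST1H3E (log2 0.98, adjusted p = 0.0166) and HIST1H2AC (0.48, 0.0445). The groups of HIST1H3E did not overlap and those of HIST1H2AC did. The HIST1H3E call was lost without MD-224 replicate 1, MI-1061 replicate 2 or 3, or replicate 2 or 3 of every group (0.0508 to 0.195). The HIST1H2AC call was lost with only the compared groups (0.127), without MD-224 replicate 1 or 3, MI-1061 replicate 2 or 3, or replicate 1 or 3 of every group (0.0577 to 0.407). Both calls were also lost on the recovered reads with the deposited factors. There edgeR's adjusted p was 0.0864 for HIST1H3E and 0.166 for HIST1H2AC, and that of DESeq2 was 0.0559 and 0.137. Near-identical histone copies can share reads, which makes single values uncertain.

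Whether the compounds differed in the same way after NCS was asked by the difference of the 2 contrasts: NCS with MD-224 minus NCS with MI-1061, less the same difference without NCS. Limma called 435 genes higher (14.2%) and 761 lower (24.8%) of 3073, with a median of −0.19, and the median difference between the compounds was −0.67 after NCS, beside −0.58 without it. With TMM scaling 538 were higher and 594 lower. The ratio shared by all listed genes has the libraries with NCS and MI-1061 in it, and whether the listing used them is not given in the sources used here. Without replicate 3 of every group the counts were 113 and 243. MDM2 had 961730, 838980 and 697740 with NCS and MD-224, against 2373700, 2485100 and 2520800 with NCS and MI-1061, a log2 of −1.57 after NCS beside −1.93 without. The difference of 0.36 (SE 0.24) did not pass (limma adjusted p = 0.24). CDKN1A had 412510, 251900 and 271550 with NCS and MD-224, against 748450, 651430 and 737910 with NCS and MI-1061. Its difference between the compounds was smaller after NCS (−1.22, beside −1.97 without; difference 0.75, SE 0.22; adjusted p = 0.012, lost at 0.111 without replicate 3 of every group). Of the 49 p53 targets 6 were called higher and 9 lower in this test, with a median difference between the compounds of −1.21 after NCS and −1.11 without.

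The genes with the largest changes were picked on their values without NCS, so their values after NCS are given beside them as a description. The 15 largest falls had log2 differences of −2.41 to 0.39 after NCS, and the 15 largest rises −0.96 to 1.21. FBXW10 had 11.6, 14.1 and 20.3 with NCS and MD-224, against 7.14, 23.7 and 8.0 with NCS and MI-1061, a log2 of 0.39 after NCS beside −5.10 without. TTN had 149.8, 129 and 221 with NCS and MD-224, against 151, 91.7 and 163 with NCS and MI-1061 (0.30 after NCS, −4.85 without). In both genes the groups with NCS overlapped. DNAJC18, a DnaJ family chaperone gene, had 1155, 1368 and 1111 with NCS and MD-224, against 3221, 5586 and 3440 with NCS and MI-1061. Without NCS it had 1464, 1284 and 1552 with MD-224, against 356, 365 and 426 with MI-1061. Its difference between the compounds thus had opposite signs, −1.71 after NCS and 1.90 without.

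**Figure D5:**
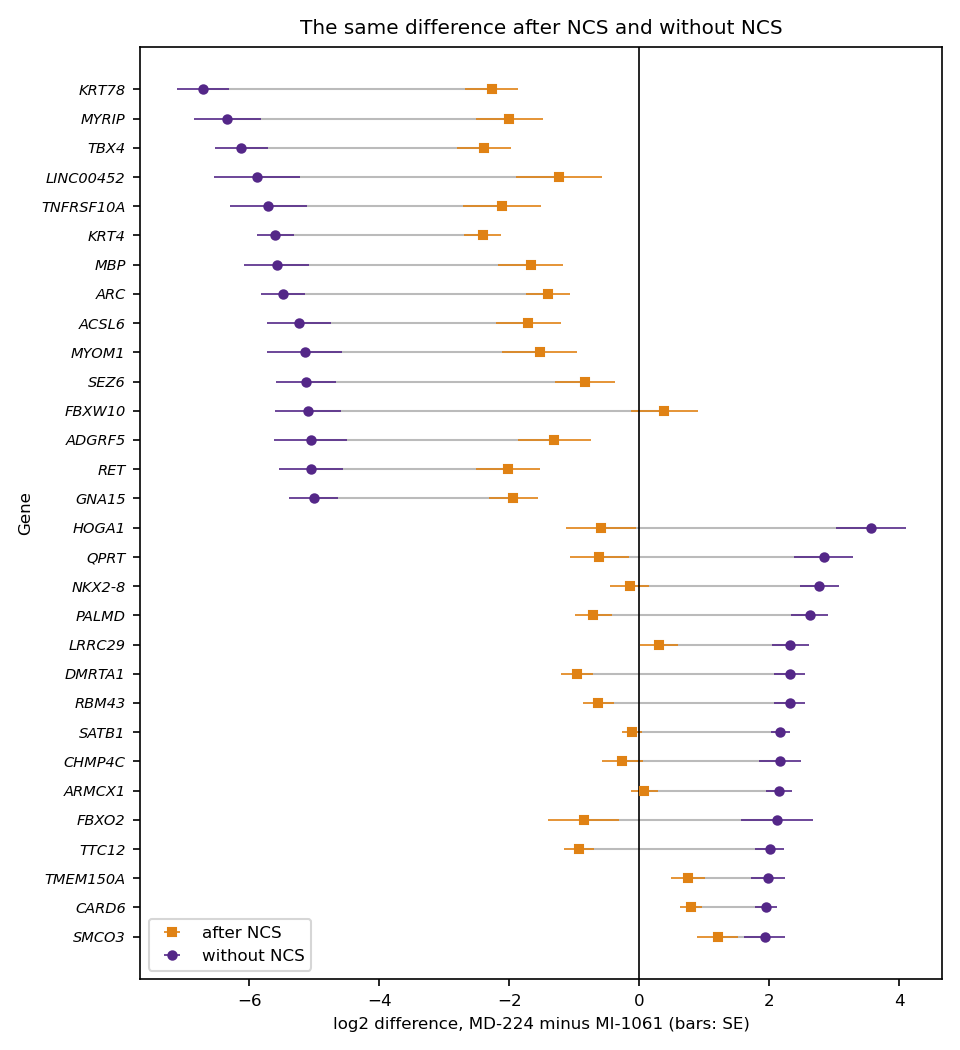
The log2 difference between MD-224 and MI-1061 after NCS (orange squares) and without NCS (violet circles) for the 15 largest falls and the 15 largest rises without NCS, with bars of 1 SE from limma. KRT78 stands at −2.27 after NCS and −6.72 without, and PALMD at −0.71 after NCS and 2.62 without.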

How the data were processed

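SJSA-1 cells, an established osteosarcoma line, gave 18 libraries in 6 groups of 3. RNA was extracted with TRIzol and libraries were poly(A) enriched, per the labels' protocols. Per the submitters' processing notes, the tools were HISAT2 (2.0.5.2), DESeq2 (2.11.40.6) and featureCounts (1.6.3), with the build GRCh38. The deposited table holds signal values for 3074 genes that behave as read counts over 1 factor for each library: whole reads were recovered in 13 of 18 libraries, with 100% of values up to 2000 reads within 0.01 of a whole number. All columns belonged to labelled samples (0 were left out). Recovered reads of the compared libraries differed between replicates by a chi-square per gene of 37.7 to 133, so no library was counted as a repeat.

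Genes with at least 10 in at least 3 libraries (3073; 1 was below) were tested as log2(value + 1) with limma 3.58.1 (trend, all 6 groups in 1 fit, two-sided, Benjamini-Hochberg over all tested genes) in R 4.3.3. A pseudocount understates the change of low genes. The 2 contrasts were MD-224 minus MI-1061 without NCS, and the same after NCS less that without. Alternatives were pseudocounts of 0.5 and 5, no filter or a mean of at least 50, TMM scaling (edgeR 4.0.16), the replicate block, only the compared groups, each library left out, and edgeR and DESeq2 1.42.0 on the recovered reads with their own or the deposited size factors; DESeq2 with the deposited factors was chosen after seeing the data. Same-numbered libraries deviated together: residual correlations were 0.405, 0.434 and 0.102 between MD-224 and MI-1061 and 0.309, 0.428 and 0.198 between the same compounds after NCS. The numbers thus appear to pair the samples, but the main fit leaves the replicate number out. P-values given without the block are therefore unpaired. With the block 0 calls of the first contrast were lost. The models were tested on simulated data. For the first contrast limma recovered 86.6% of 4-fold, 53.7% of 2-fold and 13.6% of 1.5-fold changes, with 4 false calls. For the second contrast these shares were 70.1%, 16.4% and 9.1%, so a gene without a call may still differ. Python 3.11.15 with pandas 2.3.3 and matplotlib 3.10.9 made the tables and figures.

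Genes were named by rule: the 15 largest rises and falls among called genes with a mean of at least 50, a reference symbol and no overlap, in each list the 4 members of smallest p at most, up to 8 list members nearest to no difference, and the 5 largest differences each way of the second contrast. The members, lists and rule were chosen with earlier results of these data known, 10 genes so chosen are not reported here and 10 others were named after their values were seen. Of the symbols, 2795 matched a RefSeq gene (GRCh38.p14), 203 a synonym only and 76 neither. Coordinates and promoters come from RefSeq. Library depth is not known, since sums over listed genes are not depths.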

Additional observations from a re-analysis of the deposited data

Results flagged for a closer look

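The difference between MD-224 and MI-1061 was itself larger or smaller after NCS than without it in many genes, by limma's test of the difference of both contrasts: 435 genes had a higher and 761 a lower difference after NCS (538 and 594 with TMM scaling). All listed genes share a high ratio of NCS plus MI-1061 to DMSO, and what this adds to the counts was not tested. CDKN1A had a difference of contrasts of 0.75 (log2, SE 0.22; limma adjusted p = 0.012). Among called genes with a mean of at least 50, the 5 largest positive differences were 5.48 for FBXW10, 5.16 for TTN, 4.65 for LINC00452, 4.44 for KRT78 and 4.34 for MYRIP, genes far lower with MD-224 than with MI-1061 without NCS. The 5 largest negative ones were −4.15 for HOGA1, −3.62 for DNAJC18, −3.45 for QPRT, −3.33 for PALMD and −3.31 for FAXDC2. FAXDC2, a gene of the fatty acid hydroxylase family, had 468, 736 and 203 with NCS and MD-224, against 1533, 2807 and 1949 with NCS and MI-1061, and without NCS 204, 442 and 209 with MD-224, against 116, 163 and 119.9 with MI-1061. Without NCS its limma adjusted p was 0.073, and 0.0113 with the replicate block.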

How the results depend on the processing

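Between the compounds without NCS, scaling moved the counts of calls: TMM gave 847 genes higher and 943 lower with MD-224, edgeR with its own factors 782 and 760, and DESeq2 with its own factors 834 and 793, against 277 and 1344 for edgeR and 318 and 1396 for DESeq2 with the deposited factors. With one library or one replicate number left out, 194 to 385 genes were higher and 1094 to 1502 lower, and the difference of contrasts was higher in 113 to 458 and lower in 243 to 781, each lowest without replicate 3 of every group, while TMM gave 538 and 594 for the difference of contrasts. With the replicate block that follows the pairing, 448 were higher and 1670 lower, and 536 and 945 for the difference of contrasts. Of 124 named genes, the direction turned with TMM, with edgeR's factors and with DESeq2's factors in 6: ERAP2 (0.385, 0.429 and 0.436), BRF2 (0.374, 0.412 and 0.418), SNAPC5 (0.426, 0.501 and 0.511), DDB1 (0.228, 0.289 and 0.296), RPS27L (0.447, 0.504 and 0.511) and PLAT (0.465, 0.528 and 0.535). TRIM32 (0.001) stood at −0.002 with the deposited factors in both edgeR and DESeq2. Leave-one-out values, first without 1 library and then without 1 replicate number of every group, fell on both sides of 0 in at least 1 of these ranges for BRF2 (−0.294 to 0.098; −0.216 to −0.072), GTF3C6 (−0.016 to 0.265; −0.02 to 0.163), SNAPC5 (−0.212 to 0.056; −0.133 to 0.025), HEXA (−0.064 to 0.109; −0.123 to 0.125), TRIM32 (−0.102 to 0.08; −0.023 to 0.019) and PLAT (−0.104 to 0.046; −0.113 to 0.124). Other pseudocounts and no filter changed no call of the 124. The TMM factors were 0.575 to 0.599 for the DMSO libraries and 1.73 to 1.81 for those with NCS and MI-1061. By the deposited values every listed gene was higher with NCS and MI-1061 than with DMSO. Why factors computed on listed genes differ from the deposited ones was not tested, and library depth is not known.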
